A study of Mus musculus with 58 samples.

Results

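Of 8765 inserts without a spliced reference that could be compared between a pair of genomic sites in mouse embryonic stem cells, 43 gave high RNA per integrated copy in each of 4 screens at Pou5f1 and low RNA per copy on average over 3 screens at 4930461G14Rik (14Rik). They were chosen from these values. For each insert and screen, the level was the log2 of its share of RNA reads over its share of genomic DNA (gDNA) reads, with 2 reads added to each count, minus the median of the same quantity over the 8765 inserts. A level of 0 is therefore the middle insert of a library, and a level of 1 is a doubling of RNA per copy relative to it. Members had a level of at least 0.5 in all 4 Pou5f1 screens and a mean 14Rik level of at most -0.5, and all 8765 inserts had at least 50 reads in each of the 7 gDNA libraries used. The whole library held 16461 inserts, of which 14057 had no spliced reference. The inserts are designated here by number, because the files used do not pair the numbers with genes or sequences.

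In INSERT-seq, many short sequences are integrated downstream of the same promoter, and the RNA made from each insert is counted beside its integrated copies in gDNA. All cells were F121-9 embryonic stem cells, a hybrid mouse line with a 129 and a CAST allele. For the Pou5f1 screens the inserts lay 157 nt from the start of the upstream antisense transcript on the 129 allele, upstream of an mKate2 fluorescent reporter, in cells that also carried TagBFP2 at the C terminus of Oct4, and the reverse transcription primer annealed in mKate2 221 nt downstream of the insert. For the 14Rik screens the inserts lay 102 nt from the start site on the CAST allele of wild-type F121-9 cells, with the primer 287 nt downstream. The screens at the 2 sites thus differed in cell line, allele, reporter and primer as well as in promoter, and these cannot be told apart. At Pou5f1 there were 4 total RNA libraries, 2 chromatin-associated RNA libraries from screens 2 and 3, and 2 run-on libraries of RNA labelled for 15 minutes in permeabilised cells. Run-on 1 shared its gDNA with total RNA 4, and run-on 2 had gDNA of its own. The same Pou5f1 cells were also given 40 nM of a non-targeting siRNA (siNT) or of a pool against EXOSC3 (siRRP40) for 48 h, with 3 cultures each, and were sorted into 6 bins in 2 sort screens. Whether the siRNA cultures and sort screens came from the same pool of integrated cells as the 4 screens is not stated, and the p-values then measure only the spread between these libraries.

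Most mammalian promoters fire in both directions. The upstream antisense transcript usually ends early and is degraded by the nuclear RNA exosome, of which EXOSC3 (RRP40) is a core subunit, whereas a promoter-proximal 5′ splice site favours continued elongation over early termination. Pou5f1 encodes Oct4, a transcription factor that maintains pluripotency in embryonic stem cells. 14Rik is annotated as a long non-coding RNA gene. Run-on RNA reports where engaged polymerase is transcribing, chromatin-associated RNA holds nascent transcripts not yet released, and total RNA also reflects how long transcripts persist.

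The sequences of the inserts are not in the files used, so the DNA of the host loci is shown instead. These are the 250 bases before the annotated start of each gene on the plus strand, from RefSeq (GRCm38.p6), at chr17:35505782-35506031 for Pou5f1 and chr9:58454923-58455172 for 14Rik. Capitals mark the GC box GGGCGG, searched on both strands.
Pou5f1: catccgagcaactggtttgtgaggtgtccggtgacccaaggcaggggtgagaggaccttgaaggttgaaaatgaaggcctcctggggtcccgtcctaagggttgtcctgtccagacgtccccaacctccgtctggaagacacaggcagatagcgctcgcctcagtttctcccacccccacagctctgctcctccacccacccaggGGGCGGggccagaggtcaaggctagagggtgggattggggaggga
4930461G14Rik: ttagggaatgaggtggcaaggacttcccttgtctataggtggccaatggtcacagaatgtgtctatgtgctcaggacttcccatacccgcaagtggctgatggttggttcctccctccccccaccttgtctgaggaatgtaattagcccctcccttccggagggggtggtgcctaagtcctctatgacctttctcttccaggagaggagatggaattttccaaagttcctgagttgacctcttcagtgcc
The Pou5f1 stretch is 62.0% G or C with 8 CG pairs and 1 GC box, and the 14Rik stretch is 52.4% G or C with 2 CG pairs and none. A GC box occurs in 32.7% of the 32851 windows of this length in the same table, whose median is 52.4% G or C. The antisense start used at Pou5f1 is not annotated in that table, so its distance to these bases is not given.

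Reads on insert references numbered 2665226 to 94099800 in an RNA library, 1991728 to 48334996 in a gDNA library and 507182 to 7437828 in a sorted bin. The members were read less deeply at 14Rik than other inserts. Their median gDNA count in 14Rik screens 1, 2 and 3 was 1916, 394 and 538 reads, against 3162, 614 and 824 over all eligible inserts, while at Pou5f1 it was 120, 978, 848 and 1710 against 140, 998, 822 and 1862. In siNT and siRRP40 cultures a member had a median of 296 to 418 gDNA reads. The part of this depth difference in the 14Rik levels was not tested.

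At Pou5f1, where the rule required a high level, the median member stood at 1.13, 1.29, 1.27 and 1.34 in screens 1 to 4 (mean 1.26 ± 0.09, SD over 4 screens). At 14Rik the medians were -0.46, -1.90 and -1.42 in screens 1 to 3 (mean -1.26 ± 0.74, SD over 3 screens). These values chose the inserts and carry no test. Of the 1616 inserts high in all 4 Pou5f1 screens, 1427 were high at 14Rik too, with a mean level of at least 0.5, and 146 lay between. The 43 members were therefore the small remainder, and a further 103 inserts showed the opposite arrangement, with a level of at least 0.5 in each 14Rik screen and a mean Pou5f1 level of at most -0.5.

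The low 14Rik value was an average that many members did not hold in every screen. Of the 43, 13 were at or below -0.5 in all 3 screens, 25 in exactly 2 and 5 in exactly 1. All 3 levels were below 0 for 20 members, and the other 23 had at least 1 level above 0. In 13 members at least 1 14Rik level reached 0.5, which is the bar used for high at Pou5f1, and this happened in screen 1 for 11 members, in screen 2 for 2 and in screen 3 for 0. The mean passed only because of the lowest screen in 20 members. That lowest screen was screen 2 for 21 members, screen 3 for 14 and screen 1 for 8. A member varied between the 14Rik screens by a median SD of 1.39, against 0.65 for all eligible inserts and 0.52 for inserts high at both loci. Across the 43 members the 14Rik levels of screens 2 and 3 correlated (Pearson r = 0.58), whereas screen 1 correlated with neither (r = -0.04 and -0.12). Over all 8765 inserts the same correlations were 0.78, 0.62 and 0.69, and all levels of a screen share its libraries. A low 14Rik level in every screen was thus not shared by all members, and they are described below as inserts high at Pou5f1 with a low mean at 14Rik.

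The widest separation between sites was seen in sequence_03477. Its Pou5f1 levels were 1.98, 1.97, 1.27 and 2.08, and its 14Rik levels were -5.46, -7.39 and -5.56. All 4 Pou5f1 values lay above all 3 14Rik values, and at 14Rik the insert gave 2, 0 and 10 RNA reads against 180, 162 and 330 gDNA reads. Next came sequence_01433, with Pou5f1 levels of 1.20, 1.85, 1.86 and 1.59 and 14Rik levels of -3.79, -3.62 and -3.69. Its low value was alike in the 3 screens, on 6, 12 and 20 RNA reads. In 34 of the 43 members the lowest Pou5f1 level exceeded the highest 14Rik level, against 8.82% of eligible inserts, a count that the rule largely sets and from which nothing is read. Levels overlapped in the remaining members, among them sequence_15996, whose 14Rik levels were 2.80, -6.10 and -3.01 against Pou5f1 levels of 0.93, 1.30, 0.81 and 0.91. This insert had 2726 RNA reads on 404 gDNA reads in 14Rik screen 1, and 2 RNA reads on 132 gDNA reads in screen 2. The thresholds cut through a continuous range. On the Pou5f1 side, sequence_02315 was kept with a lowest level of 0.51 and sequence_05540 fell outside at 0.49. On the 14Rik side, sequence_13633 was kept with a mean of -0.51 and sequence_02507 fell outside at -0.48.

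Leaving 1 screen out of the rule and reading the level in that screen gave values that had not chosen the inserts. With 14Rik screen 1 left out, 57 inserts were chosen, and their median level in screen 1 was 0.45. In that screen 15 of them (26.3%) were at or below -0.5, against 37.8% of all eligible inserts, and 27 (47.4%) were at or above 0.5. With screen 2 left out, 23 of 43 inserts with enough gDNA reads (53.5%) were at or below -0.5 there, against 40.3%, and with screen 3 left out 28 of 44 (63.6%), against 39.5%, with medians of -0.64 and -0.77. Among inserts high at Pou5f1 in general these shares were 4.45%, 4.21% and 3.99%. The chosen inserts were thus below other inserts high at Pou5f1 in each left-out screen by these shares, but were below the middle of the library only in screens 2 and 3. Leaving out Pou5f1 screens 1 to 4 in turn gave 61, 59, 66 and 56 inserts with enough gDNA reads in the left-out screen, whose median levels there were 0.83, 0.96, 0.87 and 1.08. Of these, 70.5%, 72.9%, 65.2% and 76.8% reached 0.5 in it, against 37.3%, 34.3%, 36.7% and 38.0% of all eligible inserts. The lists so chosen held 36, 43, 42 and 43 of the 43 members, so those reaching 0.5 were largely the members themselves. Inserts high in the other 3 Pou5f1 screens, whatever their 14Rik level, had higher medians in the left-out screen, at 1.37, 1.28, 1.42 and 1.71. They were at or below -0.5 in 1.87%, 1.32%, 3.03% and 1.23% of cases, against 9.84%, 5.08%, 13.6% and 5.36% of the chosen inserts.

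In cultures given the non-targeting siRNA, which the rule did not use, most members again lay above the middle of the library in RNA per copy. The median member stood at 1.23, 1.18 and 1.11 in cultures A, B and C (mean 1.17 ± 0.06, SD, n = 3). This SD is the spread of the members' median only. A single member varied between siNT cultures by a median SD of 0.40. Of the 37 members with at least 50 reads in each of the 6 gDNA libraries, 27 were higher in RNA than in gDNA by edgeR's quasi-likelihood test with Benjamini-Hochberg adjustment over 9812 inserts, where 35.4% of all inserts tested were called higher. Of the 37, 1 was called lower, against 32.0% of all. The median fitted log2 difference was 1.18, against 0.04 over all inserts tested. Plain library totals were the reads summed over the inserts kept in a fit. With these in place of TMM scaling, 12 members were called higher and 3 lower, against 19.6% and 48.9% of all inserts. Over all inserts the share of calls that were higher went from 52.5% to 28.6%. The members nevertheless lay below inserts high at both loci, whose mean of medians was 1.85 ± 0.05 (SD, n = 3) and of which 94.9% were called higher. Inserts high at Pou5f1 and between at 14Rik stood at 1.39 ± 0.07 with 87.8% called higher, and those high only at 14Rik at -0.77 ± 0.13 with 8.57%. No test was made between these sets, because the screens that defined them also order them by Pou5f1 level.

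The strongest member in siNT cultures was sequence_06766. Its siNT levels were 4.61, 3.69 and 3.76, all far above its 14Rik levels of -0.79, -0.84 and -1.53. The fitted log2 difference between RNA and gDNA was 4.00 (SE 0.27, adjusted p = 1.03e-09, edgeR quasi-likelihood test). For sequence_02969 the siNT levels were 2.55, 2.48 and 2.88, and the fitted difference was 2.62 (SE 0.25, adjusted p = 6.18e-08, edgeR). Its 14Rik levels split, with -4.01 in screen 1 and 0.13 and -0.10 in screens 2 and 3. The member called lower was sequence_03223, at -2.27, -0.85 and -1.16 in the 3 siNT cultures although it had been 0.59, 0.82, 1.74 and 0.64 in the Pou5f1 screens. Its fitted difference was -1.44 (SE 0.37, adjusted p = 0.00251, edgeR), and no siNT value reached the range of the 4 screens. Its gDNA counts in siNT cultures were 272, 320 and 366 reads. Counted by level, 23 of 43 members were at or above 0.5 in all 3 siNT cultures, 12 in exactly 2, 4 in exactly 1 and 4 in none. In cultures A, B and C taken singly, 76.7%, 76.7% and 72.1% of members reached 0.5, against 39.1%, 39.3% and 39.7% of eligible inserts.

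No difference of the members between siRRP40 and siNT cultures passed the test. Median levels in siRRP40 cultures were 1.08, 0.89 and 1.26 (mean 1.08 ± 0.18, SD, n = 3), a range that includes those of the siNT cultures. Against gDNA, 27 of 37 members were called higher by edgeR, where 34.3% of all inserts were, and 0 lower, where 31.9% were. With plain library totals these were 14 and 3, against 20.8% and 47.1% of all inserts. For siRRP40 against siNT, the test of the difference itself called 0 of 37 members in either direction, where 0% of all 9812 inserts were called by edgeR. At an unadjusted p under 0.05 there were 2 members and 833 inserts in all. DESeq2 called 32 inserts higher (0.326%) and 26 lower (0.265%) over the whole library and 0 members. The median member differed by -0.05 (siRRP40 minus siNT, over 43 members), against 0.07 over eligible inserts and -0.03 over inserts high at both loci. All 3 siRRP40 levels lay above all 3 siNT levels in 2 members, against 8.21% of eligible inserts, and below them in 1, against 5.54%.

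The largest fitted rise after siRRP40 among members with enough reads was in sequence_03223. It went from the siNT levels above to -0.44, -0.85 and -0.06, a fitted difference of 0.92 (SE 0.52, adjusted p = 0.652, edgeR), and the cultures of the 2 treatments overlapped. The largest fall was in sequence_15996, from 0.58, 1.16 and 1.97 to 0.45, 0.74 and -0.03, a fitted difference of -0.90 (SE 0.41, adjusted p = 0.567, edgeR). Here too the groups overlapped. Neither passed the threshold. Taking all 6 siRNA cultures, 18 of 43 members were at or above 0.5 throughout, against 22.2% of eligible inserts, 29 were above 0 throughout, against 32.5%, and 1 was below 0 throughout.

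Run-on RNA was less raised in the members than total RNA, whose level at Pou5f1 the rule had required to be high. Run-on levels also spread less over eligible inserts, with quartiles of -0.70 and 0.55 in run-on 2, against -1.54 and 1.13 in siNT culture A. Over eligible inserts the 2 run-on libraries correlated at Pearson r = 0.39. In run-on 2, whose RNA and gDNA the rule had not used, the median member stood at 0.21 with quartiles of -0.10 and 0.97, and 30 of 43 were above 0, against 50.0% of eligible inserts. Inserts high at both loci had a median of 0.45 in the same library and those between at 14Rik 0.28. In run-on 1, whose gDNA the rule used, the members' median was 0.92, and for inserts high at both loci it was 0.86. Read against the gDNA of run-on 2 instead, run-on 1 gave a median of 0.74. The gap between siNT total RNA and run-on 2 had a median of 0.76 among members, against 1.38 among inserts high at both loci and 0.06 over eligible inserts. Both run-on levels were at or above 0.5 in 12 members, against 14.1% of eligible inserts.

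Tested with both run-on libraries and all untreated Pou5f1 libraries in 1 fit, 3 of 43 members were higher in run-on RNA than in gDNA by edgeR, where 0.951% of all inserts were, and 1 was lower, where 0.490% were. Of eligible inserts 0.675% were called higher, of those high at both loci 3.22% and of those between at 14Rik 0.685%. The members' calls share gDNA with the rule, and the fit also held the 4 total RNA libraries that the rule used. They are therefore a description. With plain library totals they were 2 and 1, against 0.612% and 0.603% of all inserts. Without the screen as a block 0 members were higher, against 1.30% of all inserts. Leaving out screen 1 or 2 left 0 members higher, where 18 of 14208 and 13 of 10651 inserts were higher. Leaving out screen 4 or 5 leaves 1 run-on library, so calls from those fits are not given. In sequence_15996 the run-on levels were 2.06 and 1.62, above its 4 total RNA levels, and the fitted difference from gDNA was 1.88 (SE 0.34, adjusted p = 0.0288, edgeR). In sequence_08500 they were 3.33 and 1.81 (fitted 3.00, SE 0.60, adjusted p = 0.0383, edgeR). Both calls were lost when screen 1 or 2 was left out, as were most such calls over all inserts. The insert called lower was sequence_04118. It gave 14 and 30 run-on reads on 310 and 280 gDNA reads, for levels of -4.75 and -4.05, while its total RNA levels lay between 0.73 and 2.02 in the 4 screens. Its chromatin levels were 2.11 and 2.13. Run-on levels did not overlap those of the other kinds of RNA in this insert, a difference that was not tested. The fitted difference of its run-on RNA from gDNA was -4.52 (SE 0.72, adjusted p = 0.0201, edgeR). The call was lost without screen 2, where 8 of 10651 inserts were called lower.

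In chromatin-associated RNA the members were raised in both libraries. Their median was 0.82 in screen 2 and 0.69 in screen 3, against 0.87 and 0.87 for inserts high at both loci, and 21 of 43 reached 0.5 in both, against 17.1% of eligible inserts. Both libraries share their gDNA with the rule, so a low gDNA count that raised the total RNA level also raised these, and the counts are a description. By edgeR 4 of 43 members were higher in chromatin RNA than in gDNA, where 3.20% of all inserts were, and 0 were lower, where 1.30% were. At an unadjusted p under 0.05, in either direction, there were 16 of 43 members and 22.0% of all inserts. DESeq2 called 9 members higher and 0 lower, against 7.35% and 7.34% of all inserts. With plain library totals edgeR called 3 and 0, against 1.65% and 1.45%, and without screen 4 it called 2 higher, against 1.11%.

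The largest chromatin value of a member belonged to sequence_08500, with levels of 6.90 and 6.38 on 33496 and 68666 reads. Its total RNA levels in the 4 screens were lower, at 1.24, 1.88, 3.56 and 0.70. The fitted difference from gDNA was 6.02 (SE 0.70, adjusted p = 0.00426, edgeR). In the siNT cultures the same insert had -1.07, -2.86 and 0.27, on 18, 40 and 14 gDNA reads, and it was not among the 37 tested there. Second was sequence_06766, whose chromatin levels of 2.90 and 2.64 lay within the range of its total RNA levels of 2.56, 3.34, 3.22 and 2.60 (fitted 2.48, SE 0.31, adjusted p = 0.00522, edgeR). Its run-on levels were 1.58 and 1.81, so it stood above the middle of the library in every kind of RNA read at Pou5f1. No member was called lower. The largest negative value was in sequence_03192, at -0.72 and -0.33 in chromatin RNA against 0.59, 0.61, 1.02 and 1.21 in total RNA (fitted -0.63, SE 0.32, adjusted p = 0.283, edgeR).

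In the sort screens an insert's gDNA was counted in 6 bins of cells. The labels used here do not state the gate or which end of the bins is bright, so only the bin number is given. On average a member had 5.24% of its bin signal in bin 1 of sort screen 1 and 20.0%, 19.4%, 25.8% and 17.5% in bins 3 to 6, after each bin was scaled to its own total. In sort screen 2 these were 4.03% in bin 1 and 18.2%, 20.0%, 23.7% and 20.3% in bins 3 to 6. Eligible inserts had 16.0% and 14.2% in bin 1. They peaked at bin 3 in both screens, at 21.6% and 22.6%, with 9.31% and 10.7% in bin 6. The members thus lay toward the higher bins in both screens, though with a broad spread.

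Of 42 members with enough reads, 19 rose over the bins by edgeR's quasi-likelihood test on the slope, where 28.6% of all 10867 inserts rose, and 3 fell, where 13.0% did. The median slope was 1.53 log2 units per bin, against 0.38 over all inserts tested and 2.40 among inserts high at both loci, of which 61.2% rose. Inserts high at Pou5f1 and between at 14Rik had a median slope of 2.03, and 47.2% of them rose and 3.52% fell. With plain library totals 14 members rose and 6 fell, against 22.1% and 26.9% of all inserts. Over all inserts the share of calls that rose then went from 68.7% to 45.1%. DESeq2 gave 25 and 6, against 39.3% and 33.3% of all inserts. With DESeq2's size factors in edgeR, 18 rose and 4 fell, against 27.9% and 21.9%, and the share of calls that rose was 55.9%. Without sort screen 1, 12 of 43 rose and 2 fell, against 16.4% and 5.18%, and without sort screen 2, 9 of 42 rose and 0 fell, against 11.9% and 0.969%. In the authors' deposited table the median sort score of the members was 3.77 and 3.90 in sort screens 1 and 2, against 3.00 and 3.14 for eligible inserts and 4.27 and 4.33 for inserts high at both loci. The same deposited scores ran from 1.93 to 5.58 and from 1.82 to 5.96 among members.

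The steepest rise was in sequence_01708. It had 0% of its signal in bins 1 and 2 of both sort screens and 49.8% and 43.4% in bins 5 and 6 of screen 1, with 40.3% and 54.7% in screen 2, for a slope of 3.70 (SE 0.60, adjusted p = 5.3e-06, edgeR). In sequence_04842 bin 5 held most, 57.0% and 51.2%, and the slope was 3.63 (SE 0.74, adjusted p = 0.000129, edgeR). The steepest fall was in sequence_05049, which had 64.8% and 56.1% in bin 2 and 0% in bins 4 to 6 of both screens (slope -2.83, SE 0.70, adjusted p = 0.00126, edgeR). That call was lost without sort screen 2, at an adjusted p of 0.114. In sequence_02711 bin 2 held 83.7% and 64.2% (slope -2.24, SE 0.66, adjusted p = 0.0064, edgeR), and the call was lost without either sort screen, with an adjusted p of up to 0.117. These 2 inserts gave total RNA above the middle of the library in all 4 screens, at 0.67, 2.68, 1.80 and 1.00 for sequence_05049 and at 0.71, 1.23, 0.82 and 0.74 for sequence_02711. Their siNT levels were nearer to 0, at 0.33, 0.65 and 0.37 for the former and between -0.13 and 0.53 for the latter. The third member that fell, sequence_02969 (slope -2.04, SE 0.69, adjusted p = 0.0159, edgeR), differed from them in this, with the high siNT levels of 2.55, 2.48 and 2.88 given above.

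The 13 members low in every 14Rik screen can be set beside the whole list. Their siNT medians averaged 1.23 ± 0.08 (SD, n = 3) and their siRRP40 medians 1.11 ± 0.20 (SD, n = 3), within the spread of the values for all 43. In siNT cultures 9 of the 11 tested were called higher by edgeR and 0 lower, against 35.4% and 32.0% of all inserts tested. In run-on 2 all 13 were above 0, against 50.0% of eligible inserts, with a median of 0.43. Over the sort bins 6 of 13 rose and 1 fell, against 28.6% and 13.0% of all inserts tested.

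The insert numbers of the members were not spread evenly. Of the 43, 20 (46.5%) had a number up to 4000, where 29.0% of eligible inserts and 63.6% of inserts high at both loci lie, and 13 (30.2%) had a number from 4001 to 8000, against 26.2% of eligible inserts. Only 3 (6.98%) lay from 12001 to 16000, where 18.1% of eligible inserts lie. A single pair of members, sequence_02315 and sequence_02316, had neighbouring numbers. Whether neighbouring numbers share a source region is not stated, so the members are not known to be independent of each other.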

How the data were processed

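RNA and gDNA of the insert library were counted per insert in 46 of 58 samples, and 12 samples of ChIP-seq for H3K4me3, PRO-seq and TT-seq were not analysed here. The submitters' processing notes name cutadapt 1.14 and Bowtie2 2.3.4.3. The deposited counts are the authors' reads per insert reference, taken from column 3 of their index statistics, and 45.7% to 56.7% of a library's reads had no reference. No library held an odd count (0), so reads are not independent molecules and counting error is understated. The choice of inserts given a spliced reference is not explained in these sources. The deposited ratio of RNA to gDNA per screen equalled the ratio of these counts up to 1 constant per library in 100% of values (relative tolerance 1e-6), which tied the rows of that table to insert numbers. The deposited sort-seq score was used as the authors gave it, and 38 other columns in the deposited tables stayed unused.

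The members, the comparison sets and the tests were chosen with earlier results of these data known. Fits used edgeR 4.0.16 (quasi-likelihood test, TMM scaling, Benjamini-Hochberg adjustment over all inserts tested, threshold 0.05) in R 4.3.3, and DESeq2 1.42.0 as an alternative, after a check on simulated counts. RNA was compared with gDNA in the same culture or screen (the block), keeping inserts whose gDNA libraries in the fit all had 50 reads or more. The inserts tested were not limited to those without a spliced reference. The siNT and siRRP40 libraries shared 1 fit, as did the 13 untreated Pou5f1 libraries. The sort fit was a slope over 6 bins with the sort screen as a block, for inserts with at least 50 reads in the unsorted library of each screen and 100 over its bins. Without centring, library medians lay from -0.95 to -0.15, and levels are relative to them.

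The labels name the gDNA that corresponds to each RNA library. Deviations from group means of same-numbered RNA and gDNA correlated at 0.244 to 0.525 for Pou5f1 (others at most 0.0795), 0.042 to 0.280 for 14Rik (others at most 0.0477), 0.292 to 0.295 for siNT and 0.306 to 0.343 for siRRP40. The letters of siNT and siRRP40 RNA correlated at 0.0150 to 0.0180 only and did not serve as pairs. The inserts named are the 2 members with the widest gap between sites, those nearest to each threshold and, per comparison, up to 2 called per direction with the largest changes among members with a mean of at least 200 gDNA reads (for the bins, unsorted reads), or the largest change where none was called. Others named beside them were chosen after their values were seen.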

Additional observations from a re-analysis of the deposited data

Results flagged for a closer look

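Among 14 values read in 4 Pou5f1 screens (13 named inserts and the median of the members), 1 had a screen far from the other 3. In sequence_03477 the Pou5f1 level in screen 3 was 1.27, against 1.98, 1.97 and 2.08 in the other screens. The chromatin level of the same insert in screen 3, which shares that gDNA library, was -0.47, against 1.59 in screen 2. Chance alone gives such a gap in about 5% of groups of this size.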

How the results depend on the processing

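Of 152 values recomputed under alternatives, 126 stayed within 1.5 times the count or 1 SD of the value, and 26 moved by more. Only the median levels could reverse, and none did. Counts have a set direction, and those at 0 under both settings were among the 126. The list itself held 8 inserts at a minimum of 200 gDNA reads (3 shared with the 43), 6 at levels of 1 and -1, 13 where every 14Rik level had to be at most -0.5, and 19 without subtraction of the library medians (7 shared). Leaving out a Pou5f1 screen gave 56 to 79 inserts (36 to 43 shared). Leaving out 14Rik screen 1, 2 or 3 gave 57, 45 and 45, of which 37, 31 and 33 were shared, so a list of like size held partly other inserts. Plain library totals gave 12 members higher and 3 lower in siNT, 14 and 3 in siRRP40, and 6 falling over the bins. DESeq2 gave 9 members higher in chromatin RNA and 6 falling over the bins. With TMM factors in place of centring the siNT median was 1.27.

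Leaving out 1 culture or screen at a time gave 23 to 27 members higher in siNT and 18 to 27 in siRRP40. Over all inserts these were 3198 to 3497 and 3028 to 3522, of 9922 to 10253 tested. Where both libraries of a kind stayed, run-on RNA had 0 to 4 members higher and 0 to 1 lower. Chromatin RNA had 2 to 4 higher. Over all inserts the run-on counts were 13 to 127 and 8 to 105, and the chromatin count 118 to 251. Over the bins 9 to 12 members rose and 0 to 2 fell, against 11.9% to 16.4% and 0.969% to 5.18% of all inserts. Without the replicate block, 0 members were higher in run-on RNA, where 138 of 10616 inserts were, and only this count moved by over 1.5 times. In siNT 22 members were then higher, where 3009 of 9812 inserts were, and in siRRP40 20, where 2920 of 9812 were. The cause was not tested for any of these. In the siRNA cultures 6 of 43 members had too few gDNA reads to be tested.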
